A study of Mus musculus with 6 samples.

Results

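Dendritic cells of the peripheral lymph node (PLN) were compared between mice that had received naive CD4 T cells and mice that had received regulatory T cells (Treg), the CD4 subset that restrains immune responses. The comparison rests on 2 of the 6 RNA libraries of the series, 1 on each side, so no value has an error and no test was made. The dendritic cells of both libraries came from C57BL/6 Rag KO mice held germ-free (GF), and the donor cells had been injected 1 week earlier. Mice without a Rag gene make no T or B lymphocytes of their own; the labels do not say which Rag gene was deleted, nor where the donor cells came from. The other 4 libraries are un-injected lymph node, and spleen in the same 3 states, all from GF Rag KO mice. Flow cytometry was used to sort the cells. Its gate, the mice's age and sex and how many mice went into a library are not stated in the labels.

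Levels are read as FPKM, which divides a gene's fragments by its length and by the size of its library, although the deposited tables name no unit. The comparison took in genes outside chromosomes X and Y that had 1 FPKM or more with naive T cells, with Treg or with both, which left 10446 genes. Of these, 382 reached the limit with naive T cells alone and 705 with Treg alone, and for such genes the limit itself favours a difference in that direction. Just inside it lay Afap1, at 1.0002 FPKM with naive T cells and 0.629 FPKM with Treg. The ratio is log2 of FPKM + 0.5 with naive T cells over FPKM + 0.5 with Treg, so it is above 0 where the naive T cell library was higher. Folds undo the log, and a fold in parentheses is that of the higher of these 2 libraries over the lower. Triplets of values below are FPKM in the un-injected, naive T cell and Treg lymph node libraries, in that order.

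Dendritic cells take up antigen in the tissue and, once they mature, carry it to the lymph node, where they show it to T cells on MHC molecules beside costimulatory ligands. Interferon-gamma, made by activated T cells and natural killer cells, and type I interferon signal through receptors, Janus kinases and STAT factors; each switches on antiviral, chemokine and antigen-processing genes. Treg can act on dendritic cells through CTLA-4, which strips CD80 and CD86 from their surface. Monocytes can enter inflamed lymph nodes and take on dendritic cell features, and such cells share surface markers with conventional dendritic cells.

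The promoters of 3 interferon response genes that were far higher with naive T cells, and of 2 genes that were higher with Treg, are printed as picked examples. They do not represent either side, for which the shares are given below. The windows run from 250 bases before to 50 bases after the annotated start and are RefSeq sequences of build GRCm38.p6, 5′ to 3′ on the gene's strand. Capitals mark matches, on either strand, to the interferon-stimulated response element (ISRE, GAAA, any 2 bases, then GAAA), to the interferon-gamma activated site (GAS, TTCNNNGAA) or to the kB motif bound by NF-kB. Cxcl10 (chr5:92348840-92349139, minus strand), Igtp (chr11:58199306-58199605, plus strand) and Isg15 (chr4:156200769-156201068, minus strand) are from the naive T cell side. Fscn1 (chr5:142960105-142960404, plus strand) and Ltc4s (chr11:50238483-50238782, minus strand) are from the Treg side.
Cxcl10: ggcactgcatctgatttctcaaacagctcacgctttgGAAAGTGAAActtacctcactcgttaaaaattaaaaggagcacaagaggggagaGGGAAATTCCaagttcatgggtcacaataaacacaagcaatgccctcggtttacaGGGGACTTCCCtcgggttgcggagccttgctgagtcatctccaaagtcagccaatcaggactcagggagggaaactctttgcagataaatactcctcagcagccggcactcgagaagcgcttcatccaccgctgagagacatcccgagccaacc
Igtp: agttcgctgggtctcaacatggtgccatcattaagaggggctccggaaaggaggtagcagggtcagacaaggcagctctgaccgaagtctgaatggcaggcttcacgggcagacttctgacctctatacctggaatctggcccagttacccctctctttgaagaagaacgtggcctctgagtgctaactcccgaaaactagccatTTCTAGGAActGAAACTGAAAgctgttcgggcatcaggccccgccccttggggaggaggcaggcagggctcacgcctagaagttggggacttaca
Isg15: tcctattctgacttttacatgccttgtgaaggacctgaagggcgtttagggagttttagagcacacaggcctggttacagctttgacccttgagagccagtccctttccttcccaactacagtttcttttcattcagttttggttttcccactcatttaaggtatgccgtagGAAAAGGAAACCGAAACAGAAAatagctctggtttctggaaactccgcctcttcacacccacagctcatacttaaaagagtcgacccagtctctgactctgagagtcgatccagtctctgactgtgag
Fscn1: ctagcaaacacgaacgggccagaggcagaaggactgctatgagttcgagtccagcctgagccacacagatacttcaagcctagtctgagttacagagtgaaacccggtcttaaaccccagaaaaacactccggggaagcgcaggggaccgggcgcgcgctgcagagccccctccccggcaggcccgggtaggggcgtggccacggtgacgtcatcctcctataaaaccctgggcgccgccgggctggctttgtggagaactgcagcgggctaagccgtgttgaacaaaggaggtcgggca
Ltc4s: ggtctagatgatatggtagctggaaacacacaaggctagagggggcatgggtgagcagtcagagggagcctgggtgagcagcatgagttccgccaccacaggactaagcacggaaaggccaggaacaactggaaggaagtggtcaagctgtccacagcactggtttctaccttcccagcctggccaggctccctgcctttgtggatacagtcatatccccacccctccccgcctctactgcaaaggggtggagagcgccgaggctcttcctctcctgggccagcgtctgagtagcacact

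The Cxcl10 window holds 1 ISRE match that begins 213 bases before the start and 3 kB matches, a pair of which overlap. The Igtp window holds a GAS match 45 bases and an ISRE match 34 bases before the start, and the Isg15 window holds 3 overlapping ISRE matches. No match to these motifs lies in the Fscn1 and Ltc4s windows, nor in that of Cxcl9, which is not shown. RefSeq gave a window for 8129 of the 10446 genes, of which 3.395% hold an ISRE match, 7.15% a GAS match and 10.2% a kB match. Among the 794 genes with a window that were at least 2-fold higher with naive T cells, the ISRE share was 9.95% and the GAS share 10.2%; among the 929 at least 2-fold lower they were 2.26% and 6.14%. The kB share was 10.2% of the former and 9.795% of the latter. Of the interferon-gamma response list 11 of 20 windows hold an ISRE match and 9 of 20 a GAS match, of the type I list 17 of 32 and 6 of 32, of the monocyte list 1 of 15 and 3 of 15, and of the maturation list 2 of 25 and 1 of 25. A match is only a string of letters in the window.

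Before the results, the libraries themselves were compared. The summed FPKM was 677612, 622680 and 552580, between 10034 and 10383 genes reached 1 FPKM, and dividing by these sums shifts every ratio by -0.17, whereas median-ratio factors shift it by 0.0036. Itgax, the CD11c integrin chain, was at 39.7, 196 and 134 FPKM, and the MHC class II invariant chain Cd74 at 9886, 17009 and 17708 FPKM, so both libraries carried dendritic cell transcripts. The Y-linked genes Ddx3y, Eif2s3y, Kdm5d and Uty stood at 36.9, 58.3, 4.83 and 6.046 FPKM in the lymph node library with Treg and were listed at 0 in the naive T cell library; in spleen too they were at 52.4, 39.5, 4.72 and 4.75 FPKM in the Treg library and at 0.125 FPKM or less in the naive T cell library. The transferred cell type and the presence of Y-linked transcripts therefore cannot be told apart in these data, which is a limit on every difference below. Of bulk RNA, a larger share of a cell type and more of its RNA per cell cannot be told apart either.

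Of the 10446 genes, 1065 (10.2%) were at least 2-fold higher with naive T cells and 1234 (11.8%) at least 2-fold lower, with a median log2 ratio of -0.02. Each list count below is to be read beside these shares. With the libraries scaled by their sums the counts were 844 and 1519, so the share of these genes that were higher was 46.3% as deposited and 35.7% with that scaling. The larger differences leaned to the naive T cell side: 339 genes were at least 4-fold higher and 231 at least 4-fold lower, and 126 and 27 genes passed 8-fold. The direction went with the level. Among 835 genes with a mean of 100 FPKM or more, 16.3% were higher and 4.67% lower with naive T cells, and among 3176 genes under 5 FPKM 10.9% were higher and 21.2% lower.

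**Figure D1:**
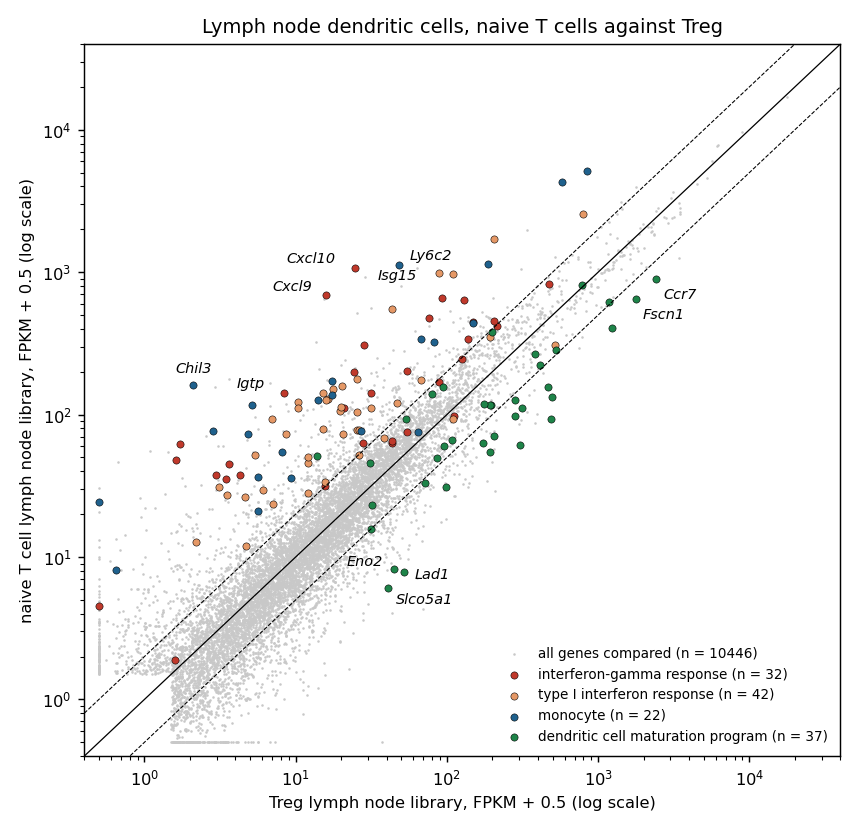
Level of each gene compared in the Treg (x axis) and naive T cell (y axis) lymph node library, both as FPKM + 0.5 on log scales, with 4 gene lists in colour; the solid line is equality and the dashed lines are 2-fold. Interferon and monocyte list genes lie mostly above the upper dashed line, and 18 of the 37 maturation genes below the lower one.

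**Figure D2:**
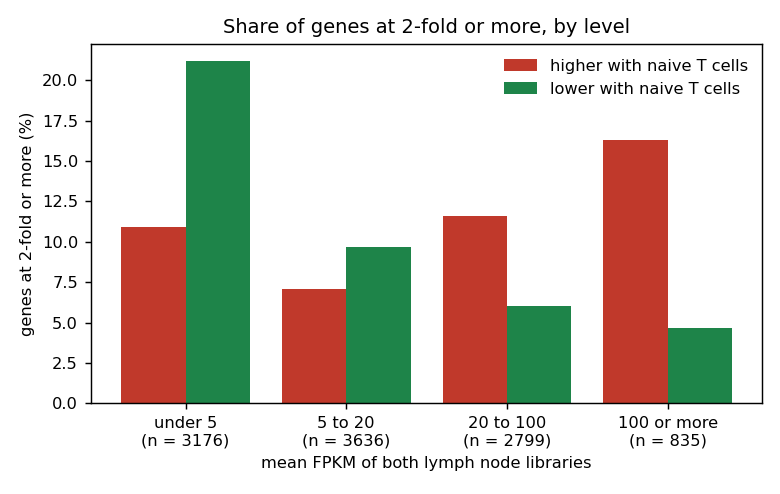
Share of genes at least 2-fold higher (red) or lower (green) with naive T cells, in percent, by the mean FPKM of both lymph node libraries. The share that was higher is the larger one from 20 FPKM upwards, the share that was lower below that.

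Genes of the interferon-gamma response were higher after transfer of naive T cells. Of 32 genes 23 were at least 2-fold higher and 0 lower, beside 10.2% and 11.8% of all genes, and the median log2 ratio was 2.24, beside -0.02 over all genes. The chemokines Cxcl9 and Cxcl10, which draw T cells that carry the receptor CXCR3, led the list. Cxcl9 stood at 4.56, 691 and 15.4 FPKM, 43.5-fold higher with naive T cells. Cxcl10 was at 60.3, 1069 and 24.1 FPKM, 43.5-fold higher. For both the naive T cell library was the only high one of the 3, and for Cxcl10 the Treg library was the lowest.

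The immunity-related GTPases, which attack the vacuoles of intracellular pathogens, all stood higher with naive T cells. Igtp was at 6.23, 141 and 7.85 FPKM (16.9-fold). Irgm1 was at 10.7, 199 and 23.9 FPKM (8.17-fold). Ifi47 was at 12.3, 306 and 27.7 FPKM (10.9-fold). For these 3 the order from high to low was naive T cells, Treg, un-injected. Iigp1 was at 1.06, 61.2 and 1.21 FPKM (36.0-fold), with the Treg library close to the un-injected one. Reads of Igtp and Irgm2, which overlap, and of Tgtp1 and Tgtp2, which are near-identical, may be shared between them; Irgm2 stood at 34.6 against 2.97 FPKM and Tgtp1 at 44.5 against 3.13 FPKM.

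The guanylate-binding proteins, GTPases of the same defence, did not differ alike. Gbp2 was at 174, 660.1 and 92.4 FPKM (7.11-fold). Gbp6 was at 0.325, 47.2 and 1.12 FPKM (29.4-fold). Gbp8 and Gbp9 differed by less than 2-fold, with 63.0 against 43.1 FPKM and 64.7 against 43.0 FPKM, and were highest in the un-injected library at 85.1 and 73.9 FPKM. Irf1, itself a target and a driver of this response, was at 497, 415 and 215 FPKM, a 1.93-fold difference with the un-injected library on top. Nlrc5, the activator of MHC class I genes, at 97.7 against 112 FPKM, and Ido1, which breaks down tryptophan, at 1.39 against 1.10 FPKM, were within 2-fold.

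The type I interferon response list stood as high. At least 2-fold higher with naive T cells were 37 of 42 genes and 0 were lower, with a median log2 ratio of 2.404. Isg15, a ubiquitin-like protein, was at 83.8, 983 and 87.6 FPKM (11.2-fold). Irf7, the factor that amplifies type I interferon, was at 30.6, 976 and 109.5 FPKM (8.88-fold). The Treg library thus lay near the un-injected level for Isg15 and above it for Irf7.

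Zbp1, a sensor of Z-form nucleic acid, was at 42.4, 551 and 42.6 FPKM (12.8-fold). Oasl1, of the oligoadenylate synthetase family, was at 8.97, 92.7 and 6.43 FPKM (13.4-fold). Ifit2 was at 121 against 9.83 FPKM and Ifit3 at 111 against 9.84 FPKM; both encode proteins that bind foreign RNA, and Ifit3 may share reads with its copy Ifit3b. Mx1, of the Mx GTPase family, was at 141, 93.2 and 109 FPKM. Epsti1 was at 1605, 308 and 520.5 FPKM. These 2 were the genes of the list that were higher with Treg, by less than 2-fold, and both were highest without transfer. Irf9 and Bst2, at 68.5 against 37.7 FPKM and 349 against 194 FPKM, were higher with naive T cells by less than 2-fold. The interferon-gamma and type I lists are separate lists, but many of their genes answer to both interferons.

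The receptors that start these responses differed less. The type I receptor chains Ifnar1 and Ifnar2 stood at 49.2 against 35.1 FPKM and 86.2 against 61.5 FPKM, the interferon-gamma receptor chain Ifngr1 at 112 against 102 FPKM, and the kinases Jak1 and Jak2 at 70.8 against 51.2 FPKM and 151 against 199 FPKM. Of that list 2 of 10 genes were at least 2-fold higher with naive T cells and 0 lower. Ifng itself was at 1.31 against 0.445 FPKM.

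Sensors of nucleic acids followed the same direction: 13 of 17 were at least 2-fold higher with naive T cells, 0 lower, and for all 17 the un-injected library lay below both others. For some, such as Zbp1, it was close to the Treg library. Ifi204, a pyrin-domain DNA sensor, was at 5.37, 208 and 13.7 FPKM (14.6-fold). Ifi205, of the same cluster, was at 1.85, 313 and 27.3 FPKM (11.3-fold). The RNA sensors Ddx58 (RIG-I) and Ifih1 (MDA5) were at 50.1 against 11.6 FPKM and 79.1 against 14.8 FPKM, whereas the adaptor Mavs was at 5.67 against 5.52 FPKM. Tmem173, the adaptor STING, was at 30.9, 146 and 60.7 FPKM (2.396-fold).

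Monocyte genes were higher after transfer of naive T cells as well. At least 2-fold higher with naive T cells were 21 of 22, with a median log2 ratio of 2.82, and their summed level was 447, 14033 and 2127 FPKM. Ly6c2, the Ly6C antigen of inflammatory monocytes, was at 7.51, 1119 and 47.4 FPKM (23.4-fold), and may share reads with its near relatives. Lyz2, which encodes lysozyme, was at 166, 4311 and 577 FPKM (7.46-fold). Plac8 was at 104, 5169 and 840.2 FPKM (6.15-fold). The order naive T cells, Treg, un-injected held for each of these.

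The largest ratio among genes above 0 in both libraries belonged to Chil3, the chitinase-like protein Ym1 of myeloid cells (ENSMUSG00000040809, chr3:106147554-106167564 in GRCm38), at 1.48, 159.8 and 1.60 FPKM (76.4-fold). Fcgr1, the high-affinity IgG receptor CD64, was at 2.497, 72.9 and 4.33 FPKM (15.2-fold). Clec4e, the lectin Mincle, was at 1.09, 116 and 4.61 FPKM (22.8-fold). Hp, haptoglobin, was at 1.02, 76.7 and 2.32 FPKM (27.4-fold). For all 4 genes the naive T cell library stood far above both others. Csf1r, the receptor for the growth factor of monocytes and macrophages, was at 18.1, 322 and 81.6 FPKM (3.93-fold). The exception was Ccr2, the receptor with which monocytes leave the bone marrow, at 4.55, 74.9 and 64.1 FPKM: it was high in both transfer libraries and within 2-fold between them.

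Macrophage genes did not share that pattern. Of 20, 5 were higher and 2 lower with naive T cells, with a median log2 ratio of 0.36. Adgre1 (F4/80) was at 39.2 against 31.5 FPKM and Mertk, a receptor for dying cells, at 2.296 against 1.87 FPKM. The C1q chains C1qa and C1qb were at 105 against 35.7 FPKM and 116 against 49.9 FPKM, Axl at 73.1 against 13.5 FPKM and the sialic acid receptor Siglec1 at 10.4 against 2.79 FPKM, whereas Mrc1, the mannose receptor, was higher with Treg at 5.65 against 16.9 FPKM.

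Fc receptors and complement genes were higher as well. Fcgr3 was at 10.4, 221 and 19.3 FPKM (11.2-fold). Fcgr4 was at 3.84, 118 and 8.18 FPKM (13.7-fold), both activating IgG receptors; 5 of 7 Fc receptor genes were at least 2-fold higher and 0 lower. Cfb, factor B of the alternative complement pathway, was at 22.6, 650.1 and 14.9 FPKM (42.3-fold). C3, its central component, was at 14.2, 321 and 13.2 FPKM (23.4-fold). Of the complement list 7 of 12 were higher and 1 lower, beside 10.2% and 11.8% of all genes. Among those higher, C2 and C4b reached 1 FPKM with naive T cells alone. The lower gene, C6, reached it with Treg alone.

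Enzymes and proteases of activated myeloid cells accounted for further large ratios. Acod1, which makes itaconate (ENSMUSG00000022126, chr14:103046977-103056573 in GRCm38), was at 0.253, 46.0 and 0.165 FPKM (69.9-fold), and Upp1, a uridine phosphorylase, was listed at 0 un-injected and at 155 against 2.43 FPKM (53.3-fold). The formyl peptide receptor Fpr2 was at 0.892, 55.0 and 0.596 FPKM (50.6-fold) and the lectin receptor Clec5a at 0.974, 49.2 and 1.09 FPKM (31.2-fold). Each of these was at 3 FPKM or less in both other lymph node libraries. Mmp14, a membrane metalloproteinase, was at 107 against 11.3 FPKM (9.08-fold), and the urokinase Plau and its receptor Plaur at 34.0 against 3.66 FPKM and 454 against 137 FPKM. Of the metalloproteinase and urokinase list 6 of 10 were higher and 0 lower, beside 10.2% and 11.8% of all genes. The median log2 ratio of that list was 1.88, and it ranged from 0.85 to 2.02 over the alternatives. Mgst1, a glutathione transferase, at 3.63, 54.3 and 0.931 FPKM (38.3-fold), and Slfn4, a Schlafen gene of myeloid cells, at 0.787, 70.4 and 2.06 FPKM (27.7-fold), belong to the strongest ratios, as does Ly6i, of the Ly6 cluster, at 3.17, 920.5 and 28.3 FPKM (31.9-fold).

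Slpi, Clec4d and Saa3 were listed at 0 in the Treg library, so no fold is given. Slpi, an inhibitor of leukocyte proteases, stood at 5.88 and 29.9 FPKM without transfer and with naive T cells. Clec4d, a partner of Mincle, was at 1.82 and 23.97 FPKM. Saa3, an acute phase protein, was at 20.3 FPKM with naive T cells and listed at 0 in both others.

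**Figure D3:**
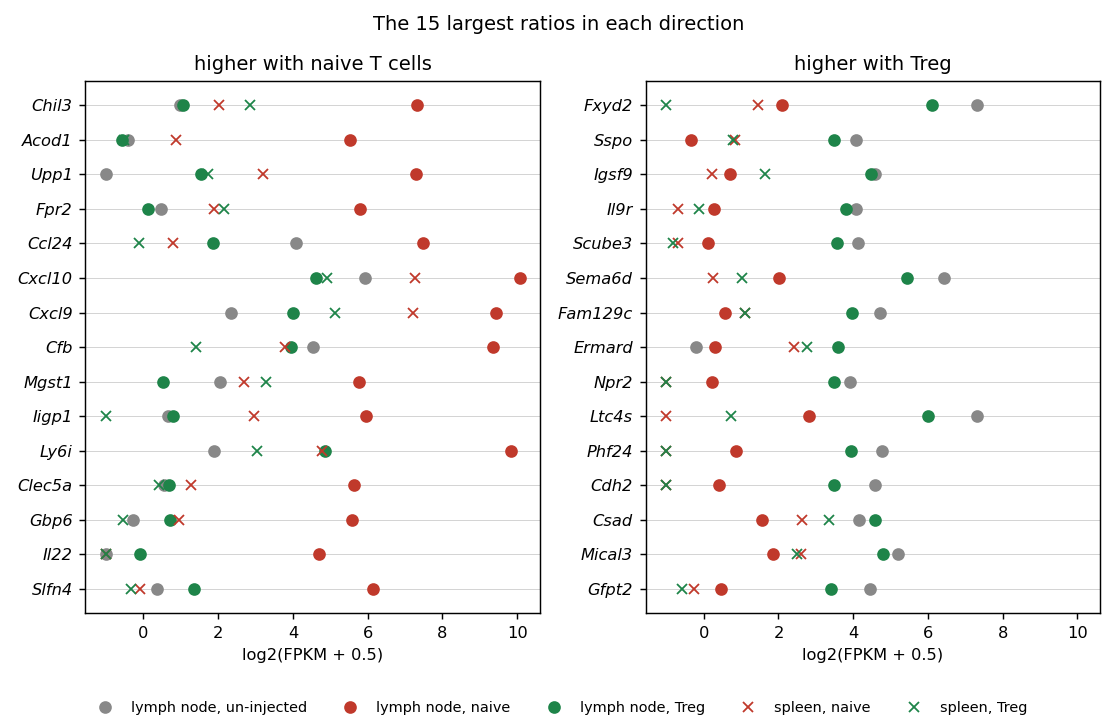
The 15 genes with the largest ratio in each direction among those that reached 10 FPKM in the higher lymph node library, as log2(FPKM + 0.5); circles are lymph node libraries and crosses spleen libraries, 1 library each. On the naive T cell side the un-injected library lies below both transfer libraries for 9 genes and between them for 6, and on the Treg side it lies above both for 13.

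The dendritic cell maturation program, the genes that are switched on as dendritic cells mature and move to the node, was the list with the most genes past 2-fold on the Treg side. Of 37 genes 18 were at least 2-fold lower with naive T cells than with Treg and 1 higher, and the median log2 ratio was -0.99. The un-injected library lay above both others for 35 of the 37, so the usual order was un-injected, Treg, naive T cells. The summed level in that order was 32360.4, 13579.6 and 6627 FPKM.

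Ccr7, the receptor that guides mature dendritic cells into the node, was at 5829, 895 and 2427 FPKM, 2.71-fold higher with Treg. Fscn1, the actin bundler fascin of mature dendritic cells, was at 4583, 646 and 1769.6 FPKM (2.74-fold). Cacnb3, a calcium channel subunit, was at 987, 133 and 498 FPKM (3.73-fold). These 3 share the order of the list. Further from equality were Slco5a1, an organic anion transporter family member, at 63.0, 5.59 and 40.5 FPKM (6.73-fold), Lad1, ladinin, at 121, 7.38 and 51.7 FPKM (6.63-fold), and Eno2, an enolase, at 87.4, 7.68 and 44.0 FPKM (5.44-fold). Relb, an NF-kB subunit that dendritic cells need to mature, was at 499, 126 and 281 FPKM (2.21-fold).

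The members of this list did not all differ in 1 direction. The costimulatory genes Cd40, Cd80 and Cd86 stood the other way, at 377 against 197 FPKM, 93.0 against 53.3 FPKM and 139.9 against 78.7 FPKM, all under 2-fold. Pdcd1lg2, the inhibitory ligand PD-L2, was the 1 gene at least 2-fold higher with naive T cells, at 34.0, 50.3 and 13.4 FPKM (3.65-fold). The chemokine Ccl22, which draws CCR4-bearing T cells such as Treg, was at 2051, 285 and 523 FPKM, and its neighbour Ccl17, which binds the same receptor, at 438, 155 and 93.4 FPKM: they differed in opposite directions, each by less than 2-fold.

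**Figure D4:**
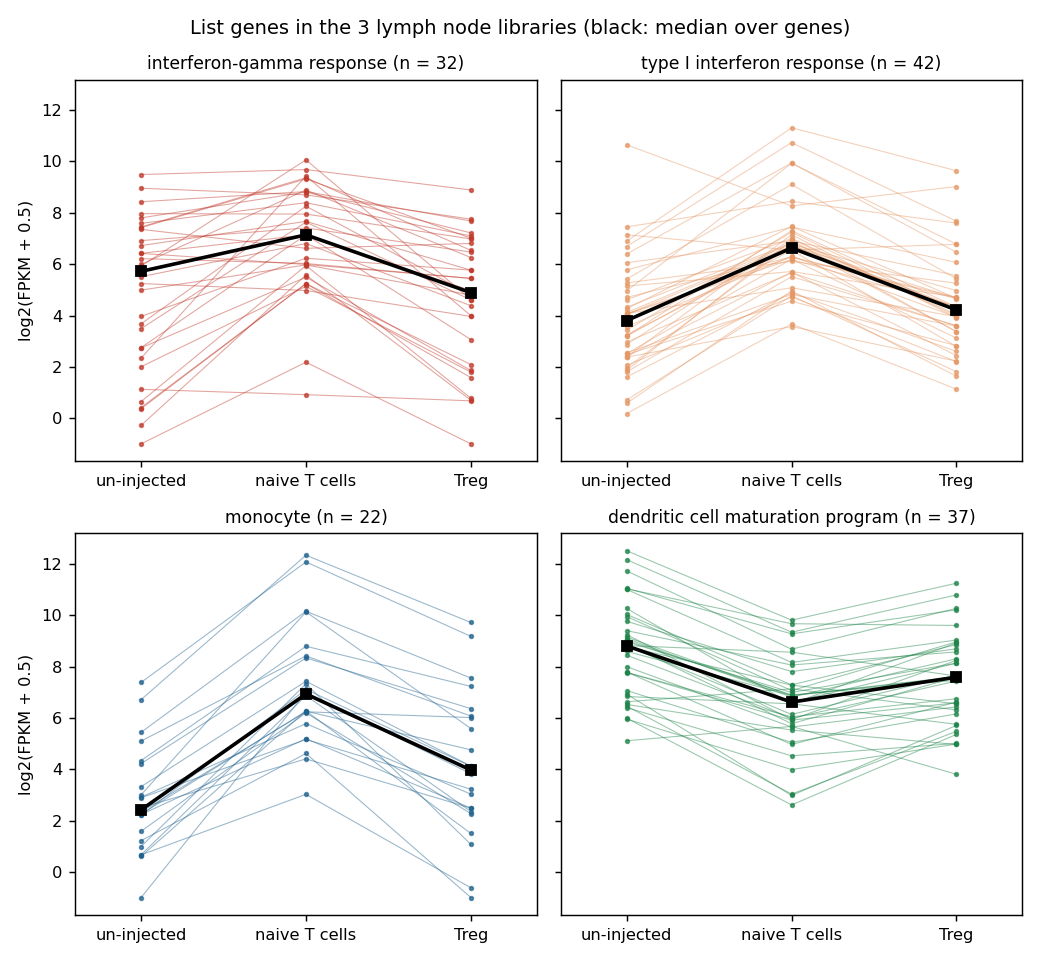
Levels of list genes, as log2(FPKM + 0.5), in the un-injected, naive T cell and Treg lymph node libraries; each thin line is a gene and the black squares are the median over genes, with 1 library a point. The interferon and monocyte lists peak in the naive T cell library, and the maturation list is lowest there and highest without transfer.

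The 15 largest ratios on the Treg side were smaller than those on the naive T cell side, with log2 ratios from -2.95 to -4.02 against 4.79 to 6.26. Fxyd2, a subunit that tunes the sodium pump (ENSMUSG00000059412, chr9:45399669-45410278 in GRCm38), led them at 158, 3.79 and 69.1 FPKM, 16.2-fold higher with Treg. Ltc4s, leukotriene C4 synthase, was at 159, 6.595 and 63.1 FPKM (8.97-fold). Sema6d, a semaphorin, was at 85.4, 3.54 and 43.0 FPKM (10.8-fold). For 13 of the 15 the un-injected library lay above both others, so the naive T cell library was the low one.

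Il9r, a receptor chain for interleukin 9, was at 16.2, 0.712 and 13.6 FPKM (11.6-fold). Igsf9, of the immunoglobulin superfamily, was at 23.4, 1.12 and 21.9 FPKM (13.8-fold). Cdh2, N-cadherin, was at 23.3, 0.819 and 10.6 FPKM (8.44-fold). The remaining genes were Sspo, Scube3, Fam129c, Npr2, Phf24, Csad, Mical3 and Gfpt2, with folds from 7.71-fold to 14.3-fold, and Ermard. Csad, at 17.2, 2.45 and 23.4 FPKM, was highest with Treg. Ermard, at 0.374, 0.742 and 11.6 FPKM, cannot be relied on: the authors' deposited table of these 2 libraries lists it at 4.75 FPKM with naive T cells, where the table of all libraries has 0.742. Tmem158 and Cdkn2a, at 6.78 and 5.10 FPKM with Treg and 8.79 and 15.03 FPKM un-injected, were listed at 0 with naive T cells; Cdkn2a encodes the cell cycle inhibitors p16 and p19.

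By their medians, markers of dendritic cell subsets leaned to the Treg side, with much spread. The median log2 ratio was -0.65 for the type 2 conventional list, -0.41 for type 1 and -1.18 for plasmacytoid. Of the type 2 conventional list 3 of 12 genes were at least 2-fold higher with naive T cells and 5 lower. Both shares exceed the 10.2% and 11.8% of all genes. Irf4, the factor of this subset, was at 47.5, 21.4 and 61.0 FPKM (2.80-fold higher with Treg). The lectin Mgl2 was at 45.6, 76.3 and 203 FPKM (2.65-fold), and its neighbour Clec10a at 15.99, 91.0 and 210.0 FPKM (2.299-fold). Sirpa, which monocytes also carry, was at 189 against 85.9 FPKM, 2.19-fold higher with naive T cells.

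Type 1 conventional markers differed less: 1 of 15 were higher and 3 lower, beside 10.2% and 11.8% of all genes. In a list of this size both counts are near those shares, so they show little. The lectin Clec9a, a receptor for dead cells, was at 5.14, 39.9 and 40.8 FPKM and the chemokine receptor Xcr1 at 0.914, 5.44 and 7.42 FPKM, so both transfer libraries were nearly level and above the un-injected one. Cadm1 was at 9.31, 2.59 and 8.51 FPKM and Cd8a at 23.9, 12.7 and 40.4 FPKM, both lower with naive T cells. Irf8, the factor of this subset that interferon-gamma also induces, stood the other way at 253, 224 and 130.5 FPKM, under 2-fold.

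Of the plasmacytoid list 5 of 9 were lower and 2 higher with naive T cells, beside 11.8% and 10.2% of all genes. Among those higher, at least Cox6a2 reached 1 FPKM with naive T cells alone, at 3.59 against 0.818 FPKM. Siglech was at 1.68, 4.62 and 11.9 FPKM (2.43-fold). Tcf4, the factor that sets this lineage, was at 26.3, 26.3 and 63.6 FPKM (2.39-fold), and the gut-homing receptor Ccr9 at 2.27, 4.72 and 22.3 FPKM (4.37-fold). Of the 5 Langerhans cell genes 3 were lower: the lectin Cd207 at 2.23 against 12.6 FPKM, Epcam at 2.47 against 14.6 FPKM and the tight junction gene Cldn1 at 2.68 against 15.01 FPKM, while Cdh1, E-cadherin, was at 11.3 against 7.502 FPKM. Across the pan dendritic cell list, Flt3, the receptor that dendritic cells need to develop, was the 1 of 8 past 2-fold, at 183, 56.6 and 204 FPKM (3.58-fold higher with Treg), and Zbtb46, a factor of conventional dendritic cells, was at 17.1 against 30.8 FPKM. Beside these markers stands the monocyte list, which was higher with naive T cells; its part in them was not tested.

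Transcription factors of dendritic cells leaned to the Treg side, with 14 of 23 ratios below 0 and a median of -0.37. Of 23 genes 2 were higher and 5 lower with naive T cells, beside 10.2% and 11.8% of all genes. The share that was higher was thus near that of all genes. Id2, an inhibitor of basic helix-loop-helix factors, was at 1759.7, 293 and 748 FPKM (2.55-fold higher with Treg). Zeb1 was at 19.4, 4.79 and 10.4 FPKM (2.07-fold). Cebpb, a factor of monocytes and macrophages, was at 2.14, 22.5 and 4.39 FPKM (4.71-fold higher with naive T cells). Batf was at 6.10, 32.0 and 14.8 FPKM (2.13-fold). Spi1, the factor PU.1 that all myeloid cells carry, was at 418 against 275 FPKM, and Batf3, which type 1 conventional cells need, at 40.4 against 71.5 FPKM, both under 2-fold. Among the interferon regulatory factors Irf5 was at 136, 268 and 118 FPKM (2.26-fold), and Irf3, which the nucleic acid sensors activate, at 46.4 against 47.3 FPKM.

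Inhibitors of cytokine signalling differed among themselves. Cish, a feedback inhibitor of STAT5 signals, was at 4.77, 27.2 and 2.83 FPKM (8.31-fold). Socs1, which restrains interferon signals, was at 37.4, 30.9 and 15.1 FPKM (2.01-fold). Socs2 was highest without transfer, at 133, 32.5 and 70.8 FPKM (2.16-fold higher with Treg). The STAT and SOCS list as a whole had 5 of 15 higher and 1 lower, with a median of 0.11 as deposited and -0.06 with the libraries scaled by their sums.

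Uptake receptors differed in both directions. Msr1, the class A scavenger receptor of macrophages, was at 3.09, 59.7 and 2.59 FPKM (19.5-fold). Clec4n, the lectin Dectin-2, was at 18.6, 251 and 34.0 FPKM (7.28-fold). For both, the naive T cell library was the only high one of the 3. Ly75, the receptor DEC-205 of dendritic cells, was at 79.8, 17.8 and 45.6 FPKM (2.51-fold higher with Treg). Clec4b1 was at 13.1, 11.9 and 35.6 FPKM (2.92-fold). Across the lectin and scavenger receptor list 7 of 21 were higher and 5 lower with naive T cells. Of the integrins Itgal, the chain of LFA-1, was at 3.10, 114 and 14.3 FPKM (7.72-fold). Itgam, CD11b, was at 4.24, 76.2 and 26.5 FPKM (2.84-fold). Itgb2, their shared partner, was at 39.2, 291 and 110.0 FPKM (2.64-fold). These 3 chains were lowest without transfer. Itga6 stood the other way at 12.8, 1.05 and 7.34 FPKM (5.05-fold). Among the growth factor receptors Csf3r, for the factor of granulocytes, was at 1.94, 45.9 and 6.09 FPKM (7.04-fold), while Csf2ra, a chain of the GM-CSF receptor, was at 80.0 against 84.9 FPKM and Kit at 26.7 against 27.0 FPKM.

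Antigen presentation on MHC class II was level between the libraries. Of 16 genes 2 were higher and 2 lower, with a median log2 ratio of 0.10 as deposited and -0.08 with the libraries scaled by their sums. H2-Ab1 was at 2099.7, 7687 and 6087 FPKM. H2-Aa was at 5053, 9717 and 8965 FPKM. Both were lowest without transfer. March1, the ligase that removes MHC class II from the surface, was at 43.2 against 19.99 FPKM and H2-Ob, which restrains peptide loading, at 25.9 against 54.2 FPKM, on opposite sides of 2-fold.

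MHC class I presentation stood slightly higher with naive T cells, with 5 of 24 genes past 2-fold, 0 lower and a median of 0.53. The peptide transporter Tap1 was at 192, 336 and 137 FPKM (2.46-fold). The immunoproteasome subunit Psmb9 was at 345, 454 and 205 FPKM (2.21-fold). Psmb10, another such subunit, was at 223, 448 and 148 FPKM (3.01-fold). The heavy chains H2-K1 and H2-D1, whose sequences are much alike, were at 2045 against 1877 FPKM and 2179 against 1974 FPKM. Genes of the constitutive proteasome were on the same side, with all 30 ratios above 0, a median of 0.72 and 5 of 30 past 2-fold.

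Of costimulatory and coinhibitory ligands 5 of 18 were higher and 4 lower with naive T cells. Cd274, the inhibitory ligand PD-L1, was at 247 against 126 FPKM, just under 2-fold. Lgals9, galectin 9, was at 12.4, 197 and 33.3 FPKM (5.86-fold). On the Treg side stood Icosl, the ligand of ICOS, at 106, 44.0 and 131 FPKM (2.95-fold). Tnfsf9, the 4-1BB ligand, was at 64.2, 32.7 and 67.3 FPKM (2.04-fold). Pvr was at 122, 38.5 and 80.9 FPKM (2.09-fold); Cd70, the CD27 ligand, was listed at 0 with naive T cells and at 1.74 FPKM with Treg.

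Genes linked to tolerance were not higher with Treg as a list: 9 of 21 were higher with naive T cells and 1 higher with Treg, beside 10.2% and 11.8% of all genes. Among those higher with naive T cells, at least Arg1 reached 1 FPKM there alone. The median log2 ratio was 0.89, and it ranged from 0.39 to 1.01 over the alternatives. Arg1, arginase, was at 12.7 FPKM with naive T cells and listed at 0 in both other lymph node libraries. Socs3, an inhibitor of cytokine signals, was at 23.6, 149 and 45.5 FPKM (3.24-fold). Tgfb1 was at 20.2, 107 and 52.6 FPKM (2.02-fold). Il10 stood at 1.16 against 0.398 FPKM. Higher with Treg was Cd200r1, an inhibitory receptor, at 1.999, 8.95 and 26.5 FPKM (2.85-fold), and Aldh1a2, which makes retinoic acid, was at 68.0, 8.24 and 16.9 FPKM, at the limit of 2-fold.

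Cytokine genes were higher or level with naive T cells: 10 of 20 were at least 2-fold higher and 0 lower, beside 10.2% and 11.8% of all genes. Among those higher, at least Il12a and Il27 reached 1 FPKM with naive T cells alone. Il1rn, the interleukin 1 receptor antagonist, was at 66.9, 514 and 24.96 FPKM (20.2-fold). Il27, a subunit of interleukin 27, was at 1.45, 18.5 and 0.449 FPKM (19.99-fold). Il18bp, the inhibitor of interleukin 18, was at 32.2, 76.4 and 16.2 FPKM (4.61-fold). The naive T cell library was the highest of the 3 for each. Il1b was at 747, 2762 and 1438 FPKM. Il6 was at 17.7, 24.4 and 9.18 FPKM. Il12b, the shared chain of interleukins 12 and 23, at 255, 49.4 and 85.7 FPKM, and Il15, at 181, 60.2 and 87.3 FPKM, stood higher with Treg by less than 2-fold. Il22, a cytokine of innate lymphoid and T cells, was at 25.4 against 0.435 FPKM in lymph node, listed at 0 in the other 4 libraries.

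Chemokines stood mostly on the naive T cell side, with 16 of 23 ratios above 0. At least 2-fold higher were 10 of 23 and lower 3, beside 10.2% and 11.8% of all genes. The share that was lower was thus near that of all genes. Among those higher, Ccl1 and Cxcl13 reached 1 FPKM with naive T cells alone. Beside Cxcl9 and Cxcl10, Ccl24, which draws eosinophils, was at 16.5, 178 and 3.15 FPKM (48.9-fold), and the monocyte attractants Ccl2, Ccl7 and Ccl12 were at 70.3 against 20.3 FPKM, 24.2 against 6.02 FPKM and 15.2 against 3.37 FPKM. Lower were Ccl5, at 11359, 1249 and 3419.5 FPKM (2.74-fold higher with Treg). Cxcl1, a neutrophil attractant, was at 102, 8.57 and 31.2 FPKM (3.49-fold). Cx3cl1 was at 31.3, 5.50 and 13.6 FPKM (2.35-fold). These 3 were highest without transfer. Of the receptors, Ccr1 was at 1.13, 34.4 and 2.58 FPKM (11.3-fold). Cx3cr1, the fractalkine receptor, was at 3.83 against 10.2 FPKM.

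Toll-like receptors and their adaptors were mostly higher with naive T cells, 9 of 19 past 2-fold and 1 lower. Tlr2, a receptor for bacterial lipoproteins, was at 10.5, 129 and 28.9 FPKM (4.40-fold), and the adaptor Myd88 at 18.1, 151 and 45.5 FPKM (3.29-fold). Ly96, the MD-2 partner of TLR4, was the gene that stood lower, at 88.2, 9.99 and 38.3 FPKM (3.70-fold higher with Treg). The inflammasome list had 6 of 13 higher and 0 lower, among them Casp4 at 148 against 28.9 FPKM, Nlrp3 at 92.0 against 30.0 FPKM and the adaptor Pycard at 156 against 44.9 FPKM.

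Subunits and targets of NF-kB leaned the other way, with 5 of 26 lower with naive T cells, 1 higher and the un-injected library above both for 21. Tnfrsf11a, the receptor RANK, was at 48.2, 7.30 and 29.1 FPKM (3.79-fold higher with Treg). Birc2 was at 243, 46.6 and 142 FPKM (3.03-fold). Tnfrsf4, OX40, was at 189, 33.4 and 73.7 FPKM (2.19-fold). Nfkb1 and Nfkb2 themselves were at 179.9 against 148 FPKM and 191 against 199.8 FPKM. Immediate early genes, which respond within minutes and can change during cell isolation, were level or lower, 4 of 24 past 2-fold, with Fos at 588 against 967 FPKM and Nr4a3 at 97.5 against 279 FPKM. Among the glucocorticoid targets Fkbp5 was at 9.23, 9.67 and 28.5 FPKM (2.85-fold higher with Treg), and in spleen at 12.5 against 39.9 FPKM (3.11-fold).

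Glycolysis genes stood mostly on the naive T cell side, with 19 of 24 ratios above 0 and a median of 0.87. At least 2-fold higher were 10 of 24 and lower 3, beside 10.2% and 11.8% of all genes. The share that was lower was thus near that of all genes. The kinases Hk3 and Pfkp were at 2.77, 65.6 and 4.28 FPKM (13.8-fold) and 25.6, 209 and 59.6 FPKM (3.48-fold), Pkm, pyruvate kinase, at 145, 424 and 145 FPKM (2.92-fold) and the glucose transporter Slc2a1 at 8.67, 56.4 and 16.3 FPKM (3.40-fold). On the Treg side stood Slc2a3, another glucose transporter, at 8.34, 2.41 and 14.8 FPKM (5.26-fold higher with Treg). Pfkfb3, a regulator of the pathway, was at 799, 100.4 and 394 FPKM (3.91-fold), and Eno2, at 7.68 against 44.0 FPKM. Pfkfb3 and Eno2, but not Slc2a3, were highest without transfer. The respiratory chain list had 4 of 24 past 2-fold and a median of 0.66.

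Lipid mediators and lipid handling showed single genes on both sides. Of the eicosanoid enzymes Pla2g7, the phospholipase that breaks down platelet-activating factor, was at 20.6, 211 and 24.1 FPKM (8.62-fold). Pla2g4a, which frees arachidonic acid, was at 3.15, 29.7 and 6.73 FPKM (4.18-fold). Tbxas1, thromboxane synthase, was at 5.70, 27.8 and 7.401 FPKM (3.58-fold). Alox5ap, which supplies arachidonic acid to the leukotriene pathway ahead of Ltc4s, was at 367 against 294 FPKM, far from the ratio of Ltc4s. The cholesterol exporters Abca1 and Abcg1 were at 7.38, 2.05 and 6.37 FPKM and 201, 50.6 and 108 FPKM, 2.70-fold and 2.13-fold higher with Treg. Nr1h3, which encodes LXR alpha, the receptor that drives such exporters, stood the other way at 5.72, 28.1 and 5.80 FPKM (4.53-fold).

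Of the stress responses, the redox genes Prdx1 and Txn1 were at 223, 492 and 182 FPKM and 453, 419.6 and 165 FPKM, 2.70-fold and 2.54-fold higher with naive T cells. Hmox1, heme oxygenase, was at 12.5, 39.3 and 11.4 FPKM (3.33-fold). Xbp1, a factor of the unfolded protein response, was at 23.98, 148 and 42.7 FPKM (3.44-fold). Of the oxidative stress list 5 of 11 were higher and 1 lower, beside 10.2% and 11.8% of all genes. Of the unfolded protein response list 4 of 15 were higher and 0 lower. Among those 4, Asns and Chac1 reached 1 FPKM with naive T cells alone, so that count shows little. Lysosomal genes had 5 of 25 higher and 0 lower, among them Ctsl, cathepsin L, at 45.8 against 17.1 FPKM, and Psap, prosaposin, at 3097 against 1412 FPKM; Ctss, the protease that trims the invariant chain, was at 2572 against 1335 FPKM. Of the apoptosis regulators Casp8 was at 79.1 against 34.3 FPKM and Bcl2a1a at 179.6 against 62.1 FPKM, and the Bcl2a1 copies may share reads.

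Lists of basic cell functions served as a comparison. None of 39 ribosomal protein genes passed 2-fold, and their median was -0.19. Cell cycle genes had 1 of 29 higher and 4 lower with naive T cells at low levels, with Mki67 at 2.31 against 5.12 FPKM and Top2a at 3.61 against 6.93 FPKM. Cholesterol synthesis had 3 of 18 higher, 0 lower and a median of 0.20.

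Markers of other cells that a dendritic cell gate could admit were followed beside these results. T cell genes gave 3 of 14 higher and 4 lower with naive T cells, over a summed 188, 81.8 and 157 FPKM. Cd3e and Cd3d were listed at 0 in both transfer libraries and Cd3g at 0 and 1.37 FPKM, so these defining receptor genes were at or near 0. Tcf7 and Il7r, at 93.7, 20.7 and 60.2 FPKM and 68.7, 14.0 and 62.1 FPKM, made up most of the sum in the un-injected and Treg libraries. Of 16 neutrophil genes 9 were compared, over a summed 80.9 against 9.14 FPKM, and of the 7 at least 2-fold higher with naive T cells all but Csf3r reached 1 FPKM there alone, so that count shows little. S100a8, S100a9 and Ly6g were at 9.45, 4.77 and 2.62 FPKM with naive T cells and listed at 0 with Treg, and Elane and Camp were listed at 0 in both.

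Of natural killer and innate lymphoid genes 6 of 12 were higher and 2 lower, beside 10.2% and 11.8% of all genes. Among those higher, at least Gzmb, Tbx21 and Il22 reached 1 FPKM with naive T cells alone, so that count shows little. The receptor Ncr1 was at 1.22 against 1.28 FPKM, Gzmb, granzyme B, at 5.47 against 0.311 FPKM and Tbx21, the factor T-bet, at 4.58 against 0.170 FPKM. Ccl5 made up most of the summed 1542 against 3646 FPKM. Of the B cell list Cd79b, at 5.85 against 8.62 FPKM, was the 1 gene past the limit. The part of neutrophils, natural killer cells and innate lymphoid cells in the differences above was not tested.

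The un-injected lymph node library gives the level without transferred cells. Its position counts any gap, however small. Of the 1065 genes that were higher with naive T cells, it lay below both transfer libraries for 564, between them for 454 and above both for 47. Of the 1234 genes that were lower, it lay below both for 103, between for 434 and above both for 697. Of the 8147 genes within 2-fold it lay below both for 3154 and above both for 3165.

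The same contrast in spleen was smaller. Of the 9641 genes that also reached 1 FPKM in a spleen transfer library, 358 (3.71%) were at least 2-fold higher with naive T cells and 325 (3.37%) lower. Across 7206 genes with a mean of at least 5 FPKM in lymph node, Pearson's r between the lymph node and spleen log2 ratios was 0.279 and Spearman's rho 0.221; this describes genes within 4 libraries, which are not independent replicates, and both Treg libraries share the Y-linked transcripts. Of 891 genes higher in lymph node, 139 (15.6%) were higher in spleen, which is 38.8% of the spleen's, and 39 were lower. Of 923 lower in lymph node, 80 (8.67%) were lower in spleen, which is 24.6% of the spleen's, and 42 were higher.

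The lists parted between the tissues. The interferon-gamma list was higher with naive T cells in spleen too, with 20 of 30 genes higher, 0 lower and a median of 1.503, as was the type I list with 21 of 42, 0 and 0.98. The summed type I level in spleen was 3979 FPKM without transfer, 4042 FPKM with naive T cells and 2542 FPKM with Treg. By that sum the naive T cell library was near the un-injected level and the Treg library below it. Cxcl10 was at 52.1 FPKM without transfer and 153 against 29.5 FPKM after it in spleen (5.12-fold), and Isg15 at 95.0 FPKM and 238 against 71.8 FPKM (3.30-fold). Cxcl9 was at 148 against 34.6 FPKM in spleen (4.21-fold) and Gbp2 at 80.2 against 9.69 FPKM (7.91-fold), the latter slightly above its fold in lymph node. The monocyte list was not higher in spleen, with 2 of 21 higher, 2 lower and a median of -0.35; Ly6c2 was at 11.0 against 9.05 FPKM, Lyz2 at 502 against 731 FPKM and Chil3 at 3.60 against 6.65 FPKM. The maturation list stood the other way, with 7 of 37 higher with naive T cells, 0 lower and a median of 0.51; Fscn1 was at 93.8 against 42.4 FPKM and Fabp5, a fatty acid-binding protein, at 128 against 30.2 FPKM. The difference between the tissues has no replicate check and was not tested.

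**Figure D5:**
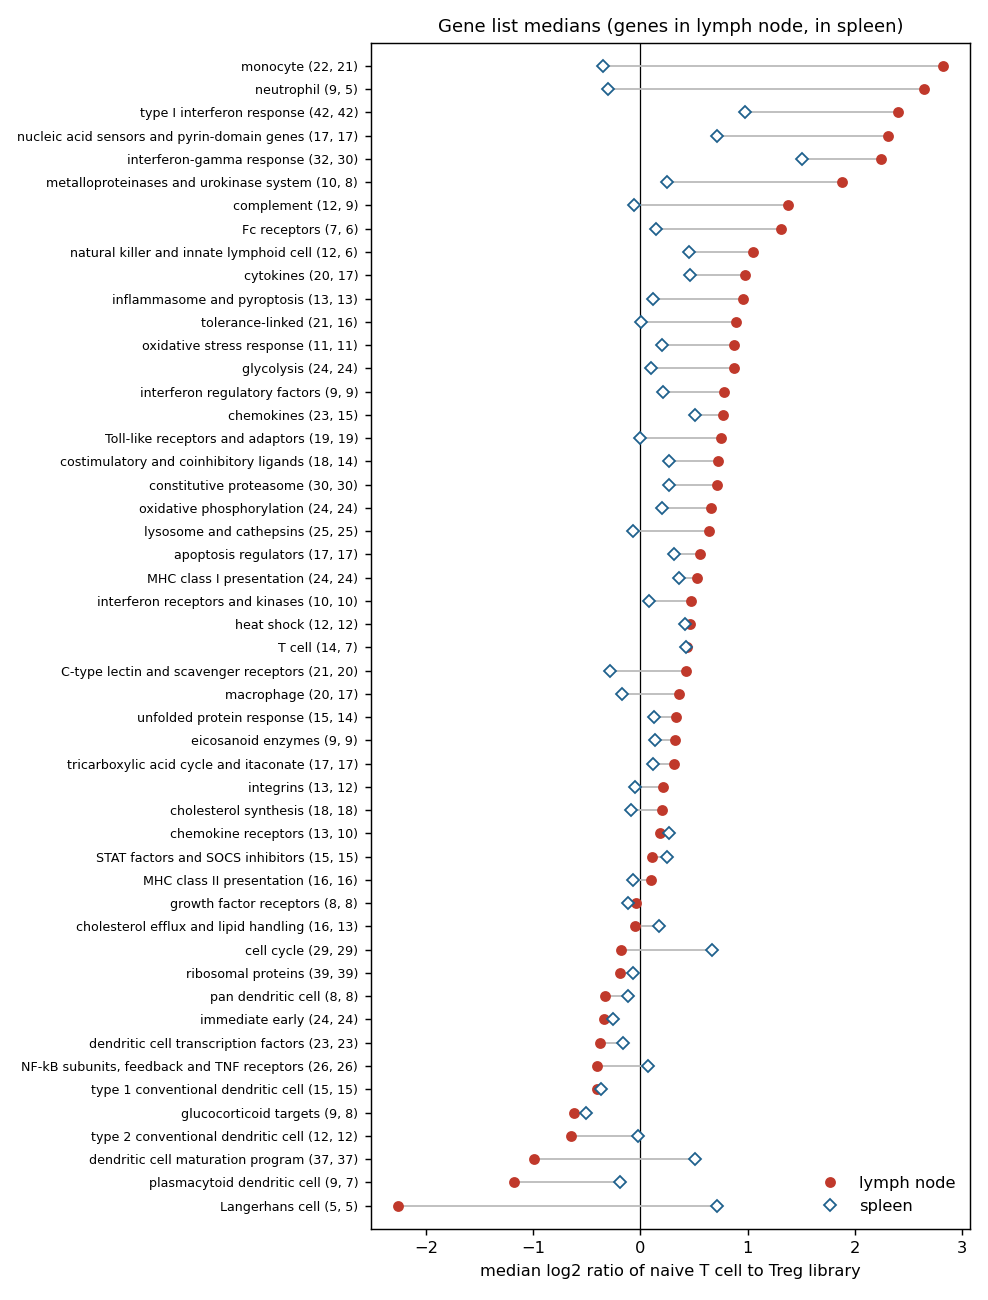
Median log2 ratio of the naive T cell to the Treg library for each gene list with at least 5 genes in both tissues, in lymph node (filled circles) and spleen (open diamonds), 1 library a side; the numbers of genes are in parentheses. Both interferon lists lie above 0 in both tissues, and the monocyte and maturation lists lie on opposite sides.

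The authors' deposited table of the same 2 libraries marks loci that differ by 2-fold and whose p-value does not exceed 0.01, from 1 library a side. Of 7837 autosomal loci with a status of OK in the authors' deposited table, 78 (0.995%) are marked higher with naive T cells and 13 (0.166%) higher with Treg. The marked loci include 14 type I interferon, 6 interferon-gamma and 6 monocyte list genes on the naive T cell side and 2 maturation genes, Lad1 and Slco5a1, on the Treg side, per the authors' deposited table. At a q-value of 0.1 or less and 2-fold the authors' deposited table keeps 6 autosomal loci, Cfb, Clec4d, Cxcl9, Cxcl10, Edn1 and Slpi, all higher with naive T cells, and 4 Y-linked loci. In spleen the authors' deposited table marks 3 autosomal loci (0.0401%), all higher with naive T cells. Those p-values compare 2 libraries and not the conditions.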

How the data were processed

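RNA from sorted dendritic cells was extracted with Trizol and made into Illumina TruSeq libraries, per the labels' protocols. The deposited table of all 6 libraries holds 1 value per gene and library, taken here as FPKM scaled by the authors; per the file headers no unit is given, and the values are fractional with sums that differ between libraries, so they are neither counts nor CPM nor TPM. The depth is therefore unknown and no interval was computed. The submitters' processing notes mention mm10, GRCm38.p4, RSEM and edgeR 3.16.5 without saying what each did. The authors' deposited tables of 2 libraries give p-values and q-values, and a log2 fold change that is infinite or past 100 in size where a value was at or near 0 and is treated as a score; which tool made them is not stated.

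From these, lines of the same symbol were summed (38 of 21914 symbols), 0.5 was added and log2 ratios taken with pandas 2.3.3 and numpy 2.4.6; values under 0.001 counted as 0. Named genes are the 15 largest ratios per direction reaching 10 FPKM, the genes highest in 1 library and listed at 0 in the other (5 FPKM or more, up to 3 per direction), and list members, leaving out predicted genes. The 53 lists, with 889 genes of which 794 were compared, and the libraries were chosen with earlier results of these data known. Ratio and call steps were tested on simulated data. The alternatives were pseudocounts of 0.1 and 1, other floors, scalings, duplicate lines, calls at 1.5-fold and 4-fold, chromosomes X and Y kept, and the authors' log2 fold change. Some genes are not reported here.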

Additional observations from a re-analysis of the deposited data

Results flagged for a closer look

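Only list members and named genes above 0 in the transfer libraries of both tissues were searched here. Of these, 10 genes stood at least 2-fold on opposite sides in lymph node and spleen, as did the medians of 2 lists on either side of 0. Among all genes, 39 that were higher in lymph node were lower in spleen, and 42 went the other way. Fxyd2, at -4.02 and 2.45, was passed over because it was listed at 0 in spleen with Treg. These differences have 1 library on each side in each tissue and were not tested. On the naive T cell side in lymph node and the Treg side in spleen, with log2 ratios in that order, were 6 genes. The complement component C2 stood at 2.03 and -1.37, and the monocyte attractant Ccl2 at 1.77 and -1.63. F13a1, the factor XIII chain of monocytes, stood at 1.92 and -2.01, and Fn1, fibronectin, at 1.94 and -1.51. Serpinb2, an inhibitor of urokinase, stood at 2.03 and -1.41, and Hba-a1, a hemoglobin chain whose copies may share reads, at 1.15 and -1.75.

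The other 4 genes stood on the Treg side in lymph node and the naive T cell side in spleen. Eno2 stood at -2.44 and 1.30, Fscn1 at -1.45 and 1.14, Mreg at -1.54 and 1.11 and Tnfrsf4 at -1.13 and 1.42. The median log2 ratio of the maturation list was -0.99 in lymph node and 0.51 in spleen. That of the 5 Langerhans cell genes was -2.26 and 0.72.

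Y-linked genes, which the comparison leaves out, were detected in lymph node with Treg and at 0.440 FPKM or less in the 2 other lymph node libraries. Ddx3y was at 36.9 FPKM, Eif2s3y at 58.3 FPKM, Kdm5d at 4.83 FPKM and Uty at 6.05 FPKM. Transfer and the presence of these transcripts cannot be told apart.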

How the results depend on the processing

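Over the alternatives that keep the 2-fold limit, the lymph node comparison gave between 805 and 1196 genes higher with naive T cells and between 700 and 1519 lower, beside 1065 and 1234. The 700 came with genes at 5 FPKM or more, which also gave 144 higher and 125 lower genes in spleen beside 358 and 325, since fewer genes were compared. With library totals 35.7% of the genes past 2-fold were higher, beside 46.3%. At 1.5-fold 2105 genes were higher and 2392 lower. Of 477 list medians recomputed, 468 moved little, 9 moved further and none turned past its limit; 4 lists, those of T cell, stromal, MHC class II and STAT and SOCS genes, had a median that took the other sign under some alternative. Of 270 ratios of named genes 252 stayed close, 17 moved and 1 turned: Ermard was at 0.595 with the authors' deposited log2 fold change, and the cause was not tested.

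With 1 library per group, no value has a replicate error, and differences between mice, sorts and libraries cannot be told apart from the transferred cells. No paired analysis was possible because each group has 1 library. The files give no counts, so differences of genes at a few FPKM carry an unknown counting error.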

Other observations

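Several gene families that no list above covers as a family stood on 1 side; they were chosen after their values were seen, so their counts support nothing further. All 7 Schlafen genes compared, a family tied to interferon and to the growth of leukocytes, were at least 2-fold higher with naive T cells, with a median log2 ratio of 2.42, beside 10.2% of all genes; Slfn3 and Slfn9 reached 1 FPKM with naive T cells alone. Values are given for lymph node without transfer, with naive T cells and with Treg. Slfn1 was at 4.97, 114 and 6.30 FPKM, and Slfn2 at 83.4, 279.7 and 51.8 FPKM. Of the Ly6 family, surface proteins of leukocytes, no count is given, since Ly6c1, Ly6g, Ly6g5b and Ly6k reached 1 FPKM with naive T cells alone. Ly6a, the antigen Sca-1, was at 18.5, 1065 and 63.0 FPKM and Ly6e at 119, 2546 and 797 FPKM, and members of this cluster may share reads. Of the Ms4a family, membrane proteins of leukocytes, 7 of 8 were higher, of which Ms4a8a reached 1 FPKM with naive T cells alone. Ms4a6d was at 12.9, 558 and 31.0 FPKM, while Ms4a7 was level at 7.87, 7.71 and 9.31 FPKM. The 4 Trim30 genes compared were all higher, of which Trim30c reached 1 FPKM with naive T cells alone; Trim30a was at 16.9, 110.2 and 30.9 FPKM. In spleen 0 of 4 Schlafen genes compared were at least 2-fold higher, 0 of 7 Ms4a genes with 1 lower, 1 of 4 Trim30 genes, and 2 of 4 Ly6 genes, Ly6a at 103 against 15.99 FPKM and Ly6i at 26.9 against 7.68 FPKM.

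On the Treg side, 4 of 5 genes of the Kmt2 family, named for lysine methyltransferases, were at least 2-fold higher with Treg, beside 11.8% of all genes. The median log2 ratio of the family was -1.20. Kmt2d was at 23.2, 12.3 and 30.8 FPKM and Kmt2e at 26.5, 12.4 and 31.9 FPKM. In spleen the median of the same 5 genes was 0.02. Of the Adam family, membrane proteases and their relatives without protease activity, 5 of 9 were higher with Treg; Adam11 was at 75.2, 17.9 and 98.6 FPKM and Adam23 at 222, 26.4 and 113 FPKM. In spleen 0 of the 9 Adam genes passed 2-fold. Subunits of the actin-branching Arp2/3 complex differed by less than 2-fold, 6 of 7 of them higher with naive T cells.

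Chil3, the gene with the largest ratio in lymph node, reached 71.8 FPKM in un-injected spleen, against 3.60 FPKM with naive T cells and 6.65 FPKM with Treg there. In lymph node the un-injected level, 1.48 FPKM, was close to the 1.60 FPKM with Treg, whereas in spleen it lay well above both transfer libraries.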
